A study of Homo sapiens with 6 samples.

Results

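The HOXD cluster on chromosome 2 holds 9 HOXD genes and the neighbouring homeobox gene EVX2, and these 10 genes, of 19974 protein-coding genes in the RefSeq table of GRCh38 patch 14 on chromosomes 1 to 22 and X, are described here. They were chosen by name. The cluster span ran from the lowest to the highest coordinate of the 10 genes (chromosome 2, 176077472 to 176190907, 113.4 kb), and all islands overlapping that span or the 100 kb on either side (175977472 to 176290907, 313.4 kb, called the HOXD window) were read. An island is an enriched stretch of the genome in a list that the authors deposited. For H3K27me3, the HOXD window held 2 of 8990 islands in the list labelled Vc− and 1 of 9639 in that labelled Vc+. For H3K4me3 it held 19 of 22307 and 22 of 21991.

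The cells were endothelial cells positive for GATA2, made from H1, an established human embryonic stem cell line, and derived in a condition labelled Vc− or Vc+. The series title gives Vc as vitamin C. Chromatin immunoprecipitation followed by sequencing (ChIP-seq) was done on 6 samples, 3 per condition (H3K4me3, H3K27me3 and an input), of which the island lists of the 4 mark libraries were used. With 1 library per mark and condition, every difference below is one between 2 libraries, with no replicate check and no test. The names of the 4 deposited files carry the opposite condition to the sample labels, so the sign of every difference rests on the labels and would be the opposite under the file names. The series design text also speaks of reporter-positive and reporter-negative cells, while all labels say GATA2-positive. Read depth is unknown, and intervals cover counting error only. As a check of the cell type, all 8 endothelial markers examined, CDH5, PECAM1, KDR, TEK, TIE1, ERG, ENG and VWF, carried H3K4me3 in both conditions. H3K4me3 was called at 75% and 75.2% of all protein-coding genes, so this is a weak check. It was also called in both at 3 of 5 blood markers and 3 of 5 pluripotency markers, with none at PTPRC, GATA1, POU5F1 or NANOG. CD34, one of the blood markers with the mark, is also expressed by endothelial cells. Of 5 mural and mesenchymal markers, 4 carried H3K4me3 in the library labelled Vc− and 3 in that labelled Vc+. H3K27me3 was called at 1 and 3 endothelial, 1 and 2 blood, 1 and 1 pluripotency and 0 and 0 mural markers in the libraries labelled Vc− and Vc+. Over all protein-coding genes it was called at 17.5% and 19.7%, so these small counts say little. The markers called in the library labelled Vc+ alone had 1.184 kb (CDH5), 0.324 kb (VWF) and 0.125 kb (CD34) covered. Whether cells of other types were present, and what part they would have in the values below, was not tested.

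HOX genes encode homeodomain transcription factors that set position along the body axis. Their order along the chromosome follows the order of their expression along the axis: HOXD1, HOXD3 and HOXD4 act anteriorly, HOXD8 and HOXD9 in the middle, and HOXD10 to HOXD13 posteriorly and in the limbs, gut end and genitalia. Polycomb repressive complex 2 writes H3K27me3 over silent HOX clusters, often as 1 continuous domain, and H3K4me3 within such a domain marks promoters said to be bivalent. Demethylases of the KDM6 family remove H3K27me3, and vitamin C is a cofactor of this enzyme class.

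Promoter sequences of the members are shown first for those at which the H3K4me3 lists turned out to differ in kind. HOXD1 and HOXD13 carried an H3K4me3 island over the promoter in both conditions. At EVX2 and HOXD4 an island touched it in 1 condition only, and at HOXD3 and HOXD12 in neither. Each sequence is the RefSeq promoter of GRCh38 patch 14 from 250 bases before to 50 after the start site, 5′ to 3′ on the gene's strand, with CG dinucleotides in capitals.
HOXD1 promoter, chr2:176188418-176188717, + strand: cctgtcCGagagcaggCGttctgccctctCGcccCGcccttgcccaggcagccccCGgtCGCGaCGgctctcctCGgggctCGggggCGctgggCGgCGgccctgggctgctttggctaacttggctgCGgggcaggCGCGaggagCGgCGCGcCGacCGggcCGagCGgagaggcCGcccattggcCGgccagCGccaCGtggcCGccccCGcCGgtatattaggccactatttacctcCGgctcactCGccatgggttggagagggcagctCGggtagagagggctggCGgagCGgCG
HOXD13 promoter, chr2:176092471-176092770, + strand: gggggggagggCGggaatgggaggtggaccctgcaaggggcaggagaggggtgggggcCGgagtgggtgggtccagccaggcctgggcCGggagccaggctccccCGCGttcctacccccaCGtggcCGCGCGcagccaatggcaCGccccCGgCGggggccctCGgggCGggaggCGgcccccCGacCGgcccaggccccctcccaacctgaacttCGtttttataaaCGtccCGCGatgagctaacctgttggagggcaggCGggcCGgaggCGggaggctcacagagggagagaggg
EVX2 promoter, chr2:176083913-176084212, − strand: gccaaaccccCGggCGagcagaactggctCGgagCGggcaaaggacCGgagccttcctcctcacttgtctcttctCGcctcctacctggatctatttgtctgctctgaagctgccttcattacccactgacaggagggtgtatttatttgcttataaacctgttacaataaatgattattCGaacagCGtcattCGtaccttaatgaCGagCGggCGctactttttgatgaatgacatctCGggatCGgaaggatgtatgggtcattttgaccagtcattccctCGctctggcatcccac
HOXD4 promoter, chr2:176151300-176151599, + strand: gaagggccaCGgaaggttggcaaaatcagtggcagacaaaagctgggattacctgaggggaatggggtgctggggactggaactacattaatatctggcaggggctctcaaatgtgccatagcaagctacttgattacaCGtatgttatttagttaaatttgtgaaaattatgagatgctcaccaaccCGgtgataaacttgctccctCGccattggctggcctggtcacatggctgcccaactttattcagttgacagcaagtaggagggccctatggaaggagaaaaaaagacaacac
HOXD3 promoter, chr2:176157057-176157356, + strand: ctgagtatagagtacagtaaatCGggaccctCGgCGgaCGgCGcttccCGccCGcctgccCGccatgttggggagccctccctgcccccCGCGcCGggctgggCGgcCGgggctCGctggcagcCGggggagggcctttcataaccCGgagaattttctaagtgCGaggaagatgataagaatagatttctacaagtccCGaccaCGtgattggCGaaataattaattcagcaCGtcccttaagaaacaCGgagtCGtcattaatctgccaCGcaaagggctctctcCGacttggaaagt
HOXD12 promoter, chr2:176099545-176099844, + strand: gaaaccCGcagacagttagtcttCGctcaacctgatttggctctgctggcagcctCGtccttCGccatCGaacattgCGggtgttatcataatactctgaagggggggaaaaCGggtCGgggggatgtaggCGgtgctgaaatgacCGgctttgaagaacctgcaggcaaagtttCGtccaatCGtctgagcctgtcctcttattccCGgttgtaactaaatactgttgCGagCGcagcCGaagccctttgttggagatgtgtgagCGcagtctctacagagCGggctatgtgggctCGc
The table matched 9 of the 10 members, all but HOXD9. The 36 CG dinucleotides of HOXD1 and 24 of HOXD13 stood against 15 in EVX2, 4 in HOXD4, 25 in HOXD3 and 19 in HOXD12. The median over 15812 promoters of protein-coding genes was 22. HOXD8, HOXD11 and HOXD10, which also had H3K4me3 at the promoter in both conditions, had 34, 27 and 23. The letters GCCAT, the core of the YY1 motif, occurred on either strand in 7 of the 9 promoters and in 37.4% of all of them. The letters TGATTNAT, a PBX-HOX motif, occurred in 1 of the 9, that of HOXD11, and in 2.07% of all. These matches are descriptions of the letters only.

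H3K27me3 lay over the whole cluster in both conditions, apart from 1 gap in the library labelled Vc−. The library labelled Vc− had an island of 77.2 kb (176063001 to 176140200) from EVX2 to HOXD8 and an island of 55.8 kb (176141201 to 176197000) from HOXD4 to HOXD1. The library labelled Vc+ had a single island of 132.4 kb (176061201 to 176193600). All of these islands held the score of 1000, at which both lists are capped. The covered length therefore came to 133 kb in the list labelled Vc− and 132.4 kb in that labelled Vc+, which is 42.4% of the HOXD window (exact 95% interval over 200 bp steps 40 to 44.9) and 42.2% (39.8 to 44.7). These intervals treat neighbouring steps as independent and leave out the variation between cultures, so the difference of 0.6 kb is not judged by them. A stretch of 129.6 kb was covered in both lists, which gave a Jaccard index of 0.954. Over all chromosomes the covered length was 40.6 Mb and 51.7 Mb, a ratio of 1.27 for the library labelled Vc+ against the other, where HOXD gave 0.995. The domain thus kept its length in a list that was longer over the genome. With the same flank, the ratio was 1.03 at HOXA, 1.06 at HOXC and 1.6 at HOXB, so a length nearly kept was not particular to HOXD.

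**Figure D1:**
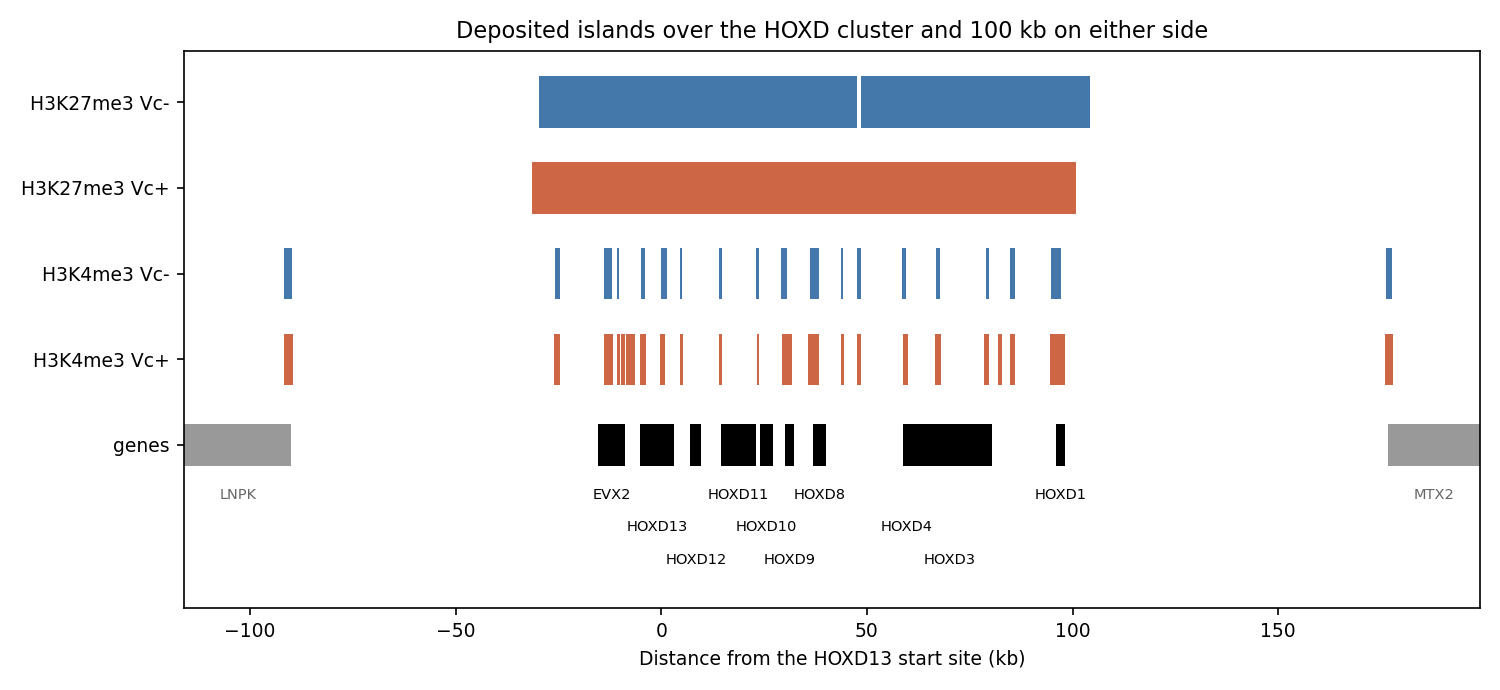
Map of the islands in the 4 deposited lists over the HOXD window. The horizontal axis is the distance from the HOXD13 start site in kb, each bar is 1 island, blue bars are from the libraries labelled Vc− and red bars from those labelled Vc+. Genes are black (members, where HOXD3 and HOXD4 overlap) or grey. H3K27me3 covers all 10 members in both conditions with 1 gap of 1 kb in the Vc− list, while the H3K4me3 islands are short.

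All 10 members lay under H3K27me3 from end to end in both libraries. Over all protein-coding genes the whole span was covered at 1.59% in the library labelled Vc− and 1.96% in that labelled Vc+, and any overlap was found at 17.5% and 19.7%. Overlap in both was found at 15.9%, in the library labelled Vc+ alone at 3.81%, in that labelled Vc− alone at 1.64% and in neither at 78.7%, and no member fell in the last 3 classes. The non-coding genes between the members were covered too, among them the whole of HAGLR, HAGLROS, HOXD-AS2 and MIR10B in both libraries. The domain ended short of the neighbouring protein-coding genes. LNPK, an endoplasmic reticulum shaping protein, and MTX2, a protein of mitochondrial import, had no H3K27me3 in either library, and both had an H3K4me3 island at their start in both. Below the cluster, next to EVX2, the domain reached 14.5 kb past the span in the list labelled Vc− and 16.3 kb in that labelled Vc+. Above it, next to HOXD1, it reached 6.09 kb and 2.69 kb. In the library labelled Vc+ the edge thus lay 1.8 kb farther out at the EVX2 side and 3.4 kb farther in at the HOXD1 side. The domain stood alone. The next H3K27me3 island below was 1330 kb away in the list labelled Vc− and 469 kb in that labelled Vc+, and the next above 358 kb and 234 kb.

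The 2 islands of the library labelled Vc− were parted by a single gap of 1 kb, 5 steps of 200 bp (176140201 to 176141200). It lay 7.51 kb past HOXD8 and 10.3 kb before HOXD4, between the posterior and middle genes on one side and the anterior genes on the other. No member was interrupted. The only gene that the gap touched was LOC401021, a long non-coding RNA gene, over its last 191 bp, and MIR10B lay 9.1 kb away. The H3K4me3 list of the same condition had an island with exactly the same ends (1 kb, score 32.7). The H3K4me3 list labelled Vc+ had an island of 0.8 kb at 176140401 to 176141200 (score 29.8), and there H3K27me3 ran on through it. An H3K4me3 island was therefore called at this site in both conditions, 0.2 kb apart in width. An H3K27me3 island ran over the site in 1 of them.

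The smallest gap between any H3K27me3 islands in either list was 800 bp, so the HOXD gap was 200 bp wider than the smallest. Since the lists hold no shorter gap, they cannot show whether H3K27me3 labelled Vc+ had a shorter dip at this site. Over the genome, 769 gaps of the list labelled Vc− were bridged by 1 island of the list labelled Vc+, with a median width of 1000 bp, the width of the HOXD gap. In the opposite direction there were 391 such gaps, of which H3K4me3 labelled Vc− filled 6.14% and that labelled Vc+ 8.44%. An H3K4me3 island of the same condition lay in 25.6% of the 769 gaps and filled 12.4% from end to end, and H3K4me3 labelled Vc+ lay in 28.5% and filled 14.2%. In both directions, many gaps lay in dense runs on a few chromosomes, away from HOXD, and most gaps in these runs held no H3K4me3. The gap numbers, median width and shares include these runs and were not computed without them. Whether gaps in domains like that of HOXD have the same shares was not tested. The match of both ends occurred in 1 of 769 (0.13%), the gap at HOXD, a feature chosen after its values were seen. Splitting itself was common. Of 772 H3K27me3 islands of 10 kb or more labelled Vc+, 37.2% matched 2 or more islands of the other list. Of the 20 that were 50 kb or wider 60% did, the HOXD island among them. Of 556 islands of 10 kb or more labelled Vc−, 22.5% matched 2 or more islands labelled Vc+. Joining islands across gaps of up to 1 kb left 1 HOXD island in each library.

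**Figure D2:**
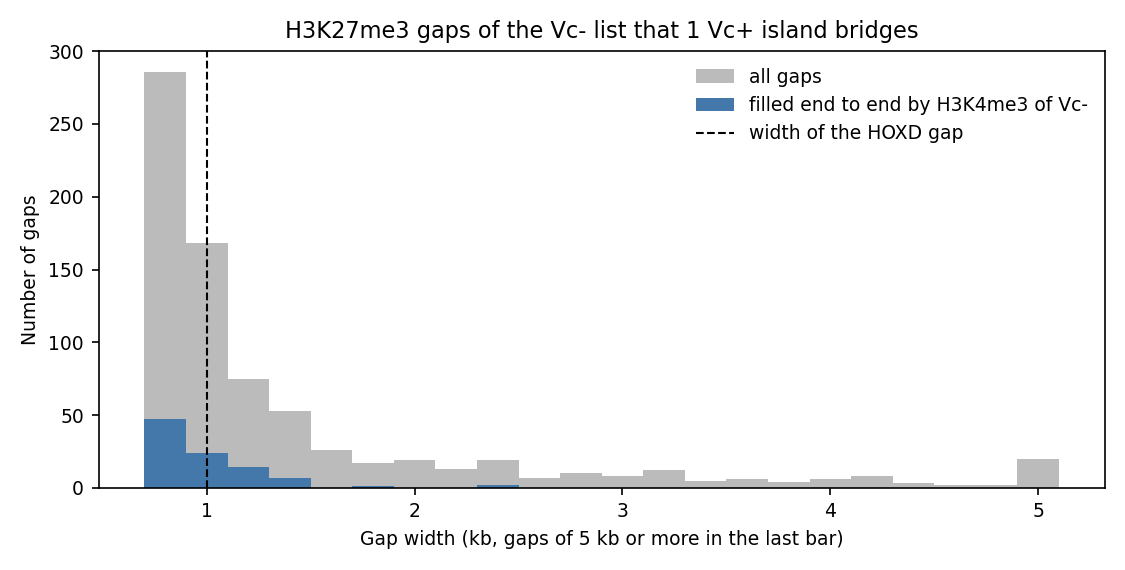
Widths of the 769 gaps between neighbouring H3K27me3 islands of the library labelled Vc− that 1 island of the library labelled Vc+ bridges. The horizontal axis is the gap width in kb, the vertical axis the number of gaps, grey bars count all gaps, blue bars those filled end to end by H3K4me3 of the library labelled Vc−, and the dashed line marks the gap at HOXD. The HOXD gap of 1 kb sits at the median.

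Within the cluster H3K4me3 formed a row of short islands, all of them inside H3K27me3 except the one at the gap in the library labelled Vc−. The library labelled Vc− had 16 of them over the cluster span, from 0.4 kb to 2.4 kb wide with a median of 1 kb, which covered 18.6 kb or 16.4% of the span (exact 95% interval 13.4 to 19.7). The library labelled Vc+ had 19, from 0.6 kb to 3.6 kb with a median of 1.2 kb, covering 26.6 kb or 23.4% (20 to 27.2). The ratio of covered lengths was 1.43 over the cluster span and 1.38 over the HOXD window (23.2 kb and 32 kb), beside 1.11 over the genome. The intervals for the HOXD window, 6.16% to 8.81% and 8.76% to 11.8%, overlapped, and those for the cluster span did not. All of these intervals treat neighbouring steps as independent and leave out the variation between cultures, so no difference between the conditions is read from them. Stretches under both marks came to 17.6 kb (15.5% of the span) in the libraries labelled Vc− and 26.6 kb (23.4%) in those labelled Vc+. H3K27me3 covered 99.1% and 100% of the span, so these lengths largely repeat those of H3K4me3. Overlap between lists does not show that both marks lay on the same chromatin or in the same cells.

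All 19 H3K4me3 islands of the window in the library labelled Vc− had exactly 1 counterpart in the library labelled Vc+. Of that whole H3K4me3 list labelled Vc−, 11.5% had none, and 12.2% of its 976 islands within H3K27me3 islands of 10 kb or more outside the HOX windows. Of the 19 pairs at HOXD, 14 were wider in the library labelled Vc+ (73.7%), 3 narrower and 2 equal, with a median difference of 0.2 kb. Over the genome 54.1% of 18432 such pairs were wider, with the same median of 0.2 kb. Among 681 pairs that lay within H3K27me3 islands of 10 kb or more outside the HOX windows, 60.5% were wider. The other 3 islands of the library labelled Vc+ (13.6% of 22) had no counterpart. Islands without a counterpart made up 11.6% of the whole list labelled Vc+, and 20.8% of those within H3K27me3 islands of 10 kb or more outside the HOX windows. So few islands leave the shares at HOXD imprecise.

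The larger H3K4me3 length in the library labelled Vc+ depended on which islands were counted. The paired islands alone covered 23.2 kb and 28 kb, so 4.8 kb of the difference of 8.8 kb came from wider islands and the rest from the 3 unpaired ones. When the longer H3K4me3 list, that labelled Vc+, lost its lowest scores until its genome-wide length equalled the other, 7 of its 22 islands in the window dropped out and 23.8 kb stayed, against 23.2 kb. The islands dropped over the genome had scores up to 13.8. Those dropped in the window had scores up to 13.4 and included all 3 unpaired ones. The island numbers, 19 and 22, then stood at 19 and 15, and joining islands across gaps of up to 1 kb made them 19 and 19. The share of the window under both marks, 6% and 8.93%, came to 6% and 6.32% when each mark was treated so. With a score of at least 10 required in both lists instead, H3K4me3 covered 6.83% and 9.38% of the window, in 16 and 19 islands.

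**Figure D3:**
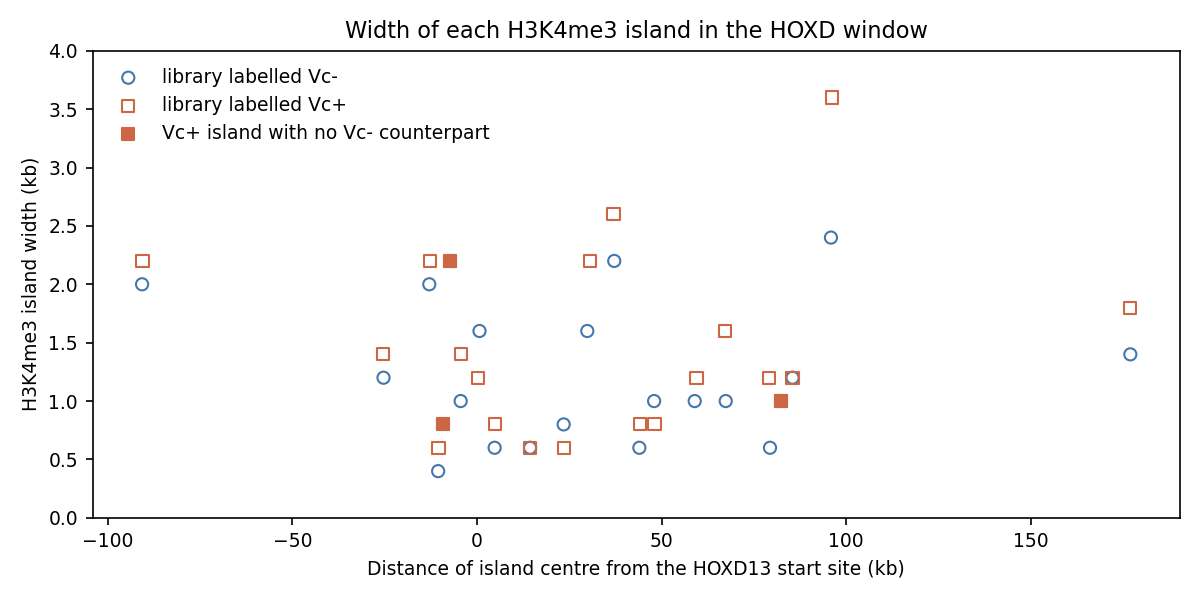
Width of each H3K4me3 island in the HOXD window. The horizontal axis is the distance of the island's centre from the HOXD13 start site in kb, the vertical axis its width in kb, blue circles are the 19 islands labelled Vc−, red squares the 22 labelled Vc+, and filled squares the 3 without a counterpart. The widest island in both libraries, 2.4 kb and 3.6 kb, lies at HOXD1.

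Read by gene, 8 of 10 members had H3K4me3 somewhere in their span in both libraries, beside 75% and 75.2% of all protein-coding genes and 74% in both, so this count was near the background. HOXD10 and HOXD12 had none in either, like 23.8% of all genes, and no member had the mark in 1 library alone (1.21% for Vc+ and 1.05% for Vc−). The share of the span under H3K4me3 was higher in the library labelled Vc+ at 5 members, equal at 3 and lower at none. Over the 15228 genes with H3K4me3 in either library, 53.5% were higher and 26.1% lower. Among 231 such genes outside the HOX clusters that, like the members, lay wholly under H3K27me3 in both libraries, 54.5% were higher and 22.9% lower. The share was at least 30 percentage points higher in the library labelled Vc+ at 3 members, HOXD1, HOXD9 and HOXD4. That held for 10.4% of the 231 genes and for 0.801% of all genes with the mark, whose spans are longer (median 24.2 kb over all protein-coding genes, against 3.08 kb for the members). The islands at these 3 genes scored 95.7, 60.7 and 20.5 in the list labelled Vc+, above those dropped at equal length. At EVX2 and HOXD3, the other members with a higher share, islands inside the span were dropped there. They scored 7.06 and 11 at EVX2 and 10.9 at HOXD3. That trimming took islands from the list labelled Vc+ only, so it could only lower the share there. Islands labelled Vc− that scored 7.6 at EVX2 and 10 and 5.32 at HOXD3 were kept. The trimming therefore cannot show what the count of 5 members would be with the same score minimum in both lists.

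Among the anterior genes, HOXD1 (NCBI gene 3231, 176188668 to 176190907), which acts in early patterning of the hindbrain and nerve cells, held the widest H3K4me3 island of the cluster. The island ran from 176187401 to 176189800 in the library labelled Vc− (2.4 kb, score 57.8) and from 176187201 to 176190800 in the library labelled Vc+ (3.6 kb, score 95.7). It covered 50.6% and 95.2% of the gene. Most of the added length lay toward the far end of HOXD1, and its start site was covered in both. The same island covered the start of HAGLR, a long non-coding RNA read from the opposite strand, and MIR7704, so the mark cannot be given to 1 of these genes alone. HOXD3 (gene 3232, 176152529 to 176173098), a factor of neck and vessel development, had 7.78% and 14.9% of its span under H3K4me3. Its start site at 176157307 had no island nearby, with the nearest 2294 bp away in the library labelled Vc− and 1894 bp in that labelled Vc+. The islands inside it lay deeper in the gene. The one at 176159601 to 176160600 in the library labelled Vc− (1 kb) was 1.6 kb in the library labelled Vc+, and the one ending at 176172400 was 0.6 kb and 1.2 kb. The island at HOXD4 also reached into HOXD3 in the library labelled Vc+, since the genes overlap.

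HOXD4 (gene 3233, 176151550 to 176153226), a target of retinoic acid in the hindbrain, had an island of 1 kb (176151201 to 176152200, score 45.2) over its start in the library labelled Vc−. In the library labelled Vc+ the island was 1.2 kb (176151601 to 176152800, score 20.5) and began 51 bp past the start site. The promoter sequence printed above was covered over 300 bp in the first and 0 bp in the second. The covered share of the gene had the opposite order, with 38.8% and 71.6%. HOXD4 was thus counted as a promoter with H3K4me3 in the library labelled Vc− alone, as were 1.04% of all promoters, by a shift of a few steps of 200 bp. MIR10B, a microRNA gene upstream of HOXD4, had no H3K4me3 in either library and H3K27me3 in both. The RefSeq sequence of its 3p arm is given with that of MIR7704, which lies inside HOXD1 under both marks, because MIR10B and MIR7704 are the microRNA genes of the cluster (hsa-miR-10b-5p is the other arm). Capitals mark the seed, bases 2 to 8.
hsa-miR-10b-3p, chr2:176150368-176150389, + strand: aCAGAUUCgauucuaggggaau
hsa-miR-7704, chr2:176188843-176188861, + strand: cGGGGUCGgcggcgacgug
The seeds printed differ, and both sequences lay wholly under H3K27me3 in both libraries.

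Among the middle genes, HOXD8 (gene 3234, 176129705 to 176132695), a factor of the trunk, had 43.3% of its span under H3K4me3 in both libraries. Its island spanned 2.2 kb (score 47.8) and 2.6 kb (score 80), and the 0.4 kb added in the library labelled Vc+ lay upstream of the gene. LOC100129455, a long non-coding RNA gene on the opposite strand, starts within the same island. HOXD9 (gene 3235, 176122719 to 176124937), a factor of the forelimb and lower spine, had 30.7% and 75.8%. Its island ran from 176121801 to 176123400 (1.6 kb, score 53.5) in the library labelled Vc− and from 176122201 to 176124400 (2.2 kb, score 60.7) in that labelled Vc+, so in the latter it was wider and lay farther into the gene.

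The posterior genes had the same covered share in both libraries. HOXD10 (gene 3236), a factor of limb and spinal motor neurons, had none in its span, and an island of 0.8 kb and 0.6 kb ended 178 bp before its start site in both libraries, which covered 73 bp of its promoter. HOXD11 (gene 3237), which acts in forearm and kidney development, had the same island of 0.6 kb (176106801 to 176107400) in both, over its start and 1.44% of its span. HOXD12 (gene 3238), a limb factor, had none, with the nearest island 1995 bp and 1795 bp from its start site. HOXD13 (gene 3239, 176087487 to 176095944), which shapes the digits, had 30.7% of its span covered in both. The island at its start was 1.6 kb (score 67.2) in the library labelled Vc− and 1.2 kb (score 36.4) in that labelled Vc+, 1 of the 3 pairs narrower in the latter. A further island in its span, at the lower-coordinate end, was 1 kb and 1.4 kb wide.

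EVX2 (gene 344191, 176077472 to 176083962), a homeobox gene related to Drosophila even-skipped that lies next to HOXD13 on the opposite strand, had 37% and 55.5% of its span under H3K4me3. The library labelled Vc− had 2 islands in it, of 2 kb and 0.4 kb, the nearest 1562 bp from the start site. The library labelled Vc+ had the same 2, at 2.2 kb and 0.6 kb, and 2 more without a counterpart. One lay inside the gene, 162 bp from the start site (176083001 to 176083800, 0.8 kb, score 11), and the other upstream (176084201 to 176086400, 2.2 kb, score 13.4). Within 2 kb of the start site the mark covered 400 bp and 3162 bp. Only 12 bp of the printed promoter was touched, so the count of EVX2 among promoters with H3K4me3 in the library labelled Vc+ alone (1.68% of all promoters) rested on the edge of an island. The third island without a counterpart lay in HAGLR (176174601 to 176175600, 1 kb, score 12). By the promoter rule, 6 of 9 members were marked in each library (69.5% and 70.1% of all promoters), 5 of them in both (68.4%) and 2 in neither (28.8%). All 9 lay under H3K27me3 in each library (10.3% and 12.2% of all) and in both (9.28%), and none in the library labelled Vc+ alone (2.89%), in that labelled Vc− alone (1.01%) or in neither (86.8%). Both marks met at 6 of 9 promoters in each condition, where 8.41% and 10.4% of all promoters had both.

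**Figure D4:**
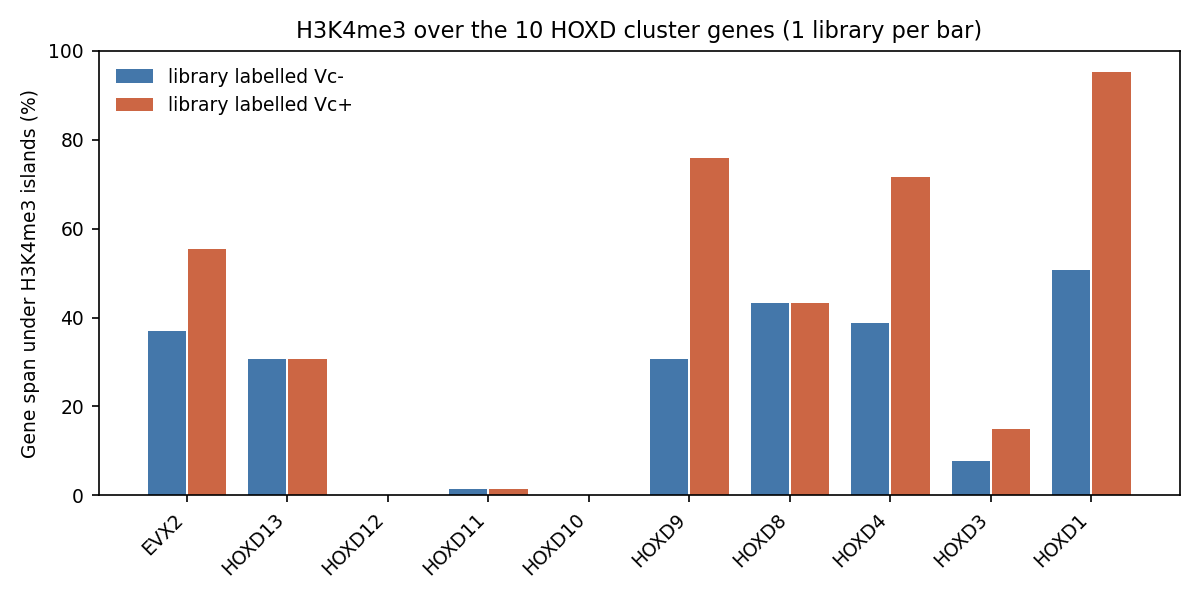
Share of the gene span under H3K4me3 islands for the 10 members, in chromosome order. The vertical axis is in percent, blue bars are the library labelled Vc− and red bars the library labelled Vc+, with 1 library per bar and no error bar. HOXD1, HOXD9 and HOXD4 show the tallest red bars, at 95.2%, 75.8% and 71.6%, and HOXD10 and HOXD12 have none.

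Along the cluster, H3K4me3 covered 18.2% of the stretch from EVX2 to the gap in the library labelled Vc− and 25.5% in that labelled Vc+, in 10 and 12 islands. From the gap to HOXD1 it covered 12.5% and 19.7%, in 5 and 6 islands. Both sides thus had the higher value in the library labelled Vc+. Outside the cluster span, H3K4me3 covered 3.2 kb and 3.6 kb of the 100 kb below and 1.4 kb and 1.8 kb of the 100 kb above, of which LNPK held 2 kb and 2.2 kb below and MTX2 all of the length above.

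The other HOX clusters were read in the same way, each over the span of its HOX genes and, for HOXA, EVX1. H3K27me3 covered 92% and 92.5% of HOXA, 12.9% and 28.5% of HOXB and 100% and 100% of HOXC in the libraries labelled Vc− and Vc+, beside 99.1% and 100% of HOXD. HOXD was thus close to HOXC. The ratio of the length labelled Vc+ to that labelled Vc− was 2.22 at HOXB, 1.01 at HOXA, 1 at HOXC and 1.01 at HOXD. The whole span was under H3K27me3 at every HOXC and HOXD gene and at 11 and 12 of 12 HOXA genes in the libraries labelled Vc− and Vc+, whereas 5 and 3 of 10 HOXB genes had none at all. H3K4me3 covered 23.6% and 29.1% of HOXA, 38.5% and 41.4% of HOXB and 5.46% and 13.5% of HOXC. HOXD, at 16.4% and 23.4%, stood between HOXC and HOXA in both conditions. The value was higher in the library labelled Vc+ in all 4 clusters, by ratios of 1.23 (HOXA), 1.08 (HOXB), 2.47 (HOXC) and 1.43 (HOXD). Over the genome the ratio was 1.11, above that of HOXB. Equal covered length was read for HOXD alone.

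**Figure D5:**
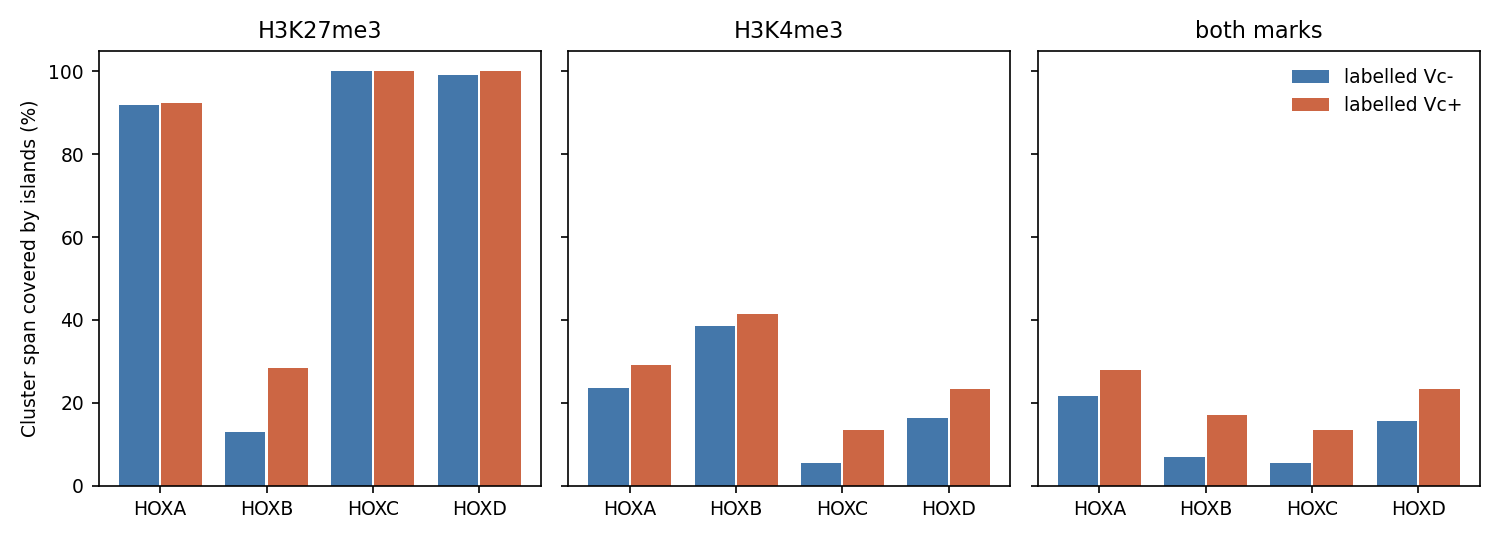
Share of each HOX cluster span covered by islands of H3K27me3, of H3K4me3 and of both marks. The vertical axes are in percent, blue bars are the libraries labelled Vc− and red bars those labelled Vc+, with 1 library per bar and no error bar. HOXD resembles HOXC for H3K27me3 and lies between HOXC and HOXA for H3K4me3.

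Other genes of the HOX network were read over their spans. H3K4me3 was called at 8 of 9 HOX cofactors of the PBX, MEIS and PKNOX families in the library labelled Vc− and at all 9 in that labelled Vc+, with PBX2 as the difference. H3K27me3 was called at MEIS1 alone in both. Over all protein-coding genes the shares were 75% and 75.2% for H3K4me3 and 17.5% and 19.7% for H3K27me3, so these counts say little about the lists. Of 6 genes upstream of HOX expression, CDX1, CDX2, CDX4, GDF11, CTCF and KMT2A, H3K4me3 was called at 6 and 4, with CDX1 and CDX4 missing in the library labelled Vc+. H3K27me3 was called at CDX1, CDX2 and CDX4 in the list labelled Vc− and at CDX1 and CDX2 in that labelled Vc+. Outside the HOX clusters, the 5 protein-coding genes whose covered shares in the 4 lists lay nearest to the median of the members (100%, 100%, 30.7% and 37%) included SLC18A3 (at a Euclidean distance of 2.08 percentage points), TBR1 (2.72), FGF4 (4.37) and CYP27B1 (4.46).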

How the data were processed

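The tools SICER, deepTools and Bowtie2 are listed without role or setting, per the submitters' processing notes, which give GRCh38 (hg38) as the build. The labels' protocols name an H3K27me3 antibody only, while the antibody field of the labels names both marks. The authors deposited 1 island list per mark library, with a score per island. The meaning of the score is not given in the sources used here: it runs from just above 2 to 309 and then to 1000, and served only for ranks and minimums inside 1 list. Only chromosomes 1 to 22 and X entered, with starts turned to count from 1. Island widths were multiples of 200 bp. Inputs were not used.

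From the coordinates, covered length, island number, gaps and overlap by at least 1 bp were computed with Python 3.11.15 and numpy 2.4.6, and exact Clopper-Pearson intervals at 95% over 200 bp steps with scipy 1.17.1. The gene span came from the RefSeq table, and start sites and strand from its promoter table (the first listed start of a gene). The interval code was tested on simulated data, where covered length, island number and overlap were right in 200 of 200 trials. All 10 members were named, with the other genes of the window, 9 HOX cofactors and 6 HOX regulators as lists, and the 5 genes nearest in pattern, of which 1 is not reported here. The members and lists were chosen with earlier results of these data known. Alternatives covered the flank, score minimum, equal covered length, joining of islands and overlap rule. No test was made between conditions.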

Additional observations from a re-analysis of the deposited data

How the results depend on the processing

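Over 11 results, 60 of 72 alternative values were classed as the same as the reported one, 11 as moved and 1 as reversed. The class was broad: a fall from 22 to 15 in the H3K4me3 island number labelled Vc+ at equal covered length counted as the same. Part of the tally was fixed in advance. The H3K27me3 islands of the window held the capped score, and the lists labelled Vc− were never trimmed. Some alternatives therefore could not change a value. The H3K27me3 difference in covered share (Vc+ minus Vc−) was -0.19 percentage points in the HOXD window and turned to 0.88 with no flank, where the gap remains and the edges drop out. The H3K4me3 difference of 2.81 points became 7.05 with no flank, a smaller denominator, and 0.19 at equal covered length. With a score of at least 10 in both lists it was 2.55. With paired islands alone, an alternative chosen after seeing the data, it was 1.53. The difference under both marks, 2.94 points, became 4.31 with a flank of 50 kb, 7.93 with no flank and 0.32 at equal covered length. Joining H3K27me3 islands across gaps of up to 1 kb, 2 kb or 5 kb left 1, 1 and 1 in the library labelled Vc−, where the library labelled Vc+ had 1 throughout. The H3K4me3 island numbers of 19 (Vc−) and 22 (Vc+) became 19 and 19 when joined across up to 1 kb. They were 18 and 17 across 2 kb, 15 and 12 across 5 kb, and 19 and 15 at equal covered length. In these settings their order was lost or turned. Their order was kept with a score of at least 5 (19 and 22) or at least 10 (16 and 19) in both lists. The same held with a flank of 50 kb (17 and 20) and with no flank (16 and 19). With at least 50% of the span required, 1 member had H3K4me3 in the library labelled Vc− and 4 in that labelled Vc+. No paired analysis was possible because each mark and condition had 1 library. For the same reason no replicate could be left out. Depth is unknown, so whether the gap or the unpaired islands would be called again at another depth was not tested.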
